A study of Mus musculus with 3 samples.

Results

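The comparison described here is that of heavy against light polysomes within cells that received a control siRNA, measured for 14058 genes by 20636 probes, out of 27745 gene names and 41174 probes on the array. A probe was kept when its green (Cy3) signal, which carried the control siRNA sample, was well above background on both the heavy and the light array, and probes of 1 gene name were averaged. The edge of that rule lay at low signals: the dimmest spot that passed had 31.4 intensity units on the heavy and 11.8 on the light array, and the brightest spot that did not pass had 40.7 on the heavy and 26.2 on the light array.

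The heavy and light pools came from lymph node stromal cells (LNSCs) of BALB/c mice, the non-blood cells that build the framework of a lymph node, grown in culture. Control siRNA was given at 400 pmol with Lipofectamine 2000, the medium was replaced after 24 h and the cells were collected after 48 h. The lysate of 7 pooled plates went onto 1 sucrose gradient of 10% to 60%, and 200 ng RNA of each gradient pool was labelled. Matched cells that received Eif4g3 siRNA were treated alike and were read in the red (Cy5) channel of the same arrays. Every value therefore belongs to transfected cells and to 1 pool of cells, and control means control siRNA and not untreated. The array of the gradient top was not used here.

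In a sucrose gradient an mRNA sediments further the more ribosomes it carries, so heavy polysomes hold mRNAs with many ribosomes and light polysomes mRNAs with few. The number of ribosomes on an mRNA is set by how often translation starts on it, by how fast ribosomes move along it, and by the length of its reading frame, since a short frame has room for few ribosomes. RNA without a long reading frame can still be found in light polysomes when ribosomes engage a short frame in it and when it sediments in another large particle.

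There was 1 array per fraction. No replicate check of any value exists, no p-value was computed, and array and fraction cannot be told apart. Heavy over light is given on the log2 scale after both arrays were brought to the same distribution of signals, so a value is relative to all other measured genes and says nothing of how much RNA each pool held. The error beside a value, called spot error, is the scanner software's error of the spots, and had a median of 0.20. It stood at 0.20 for many genes with 1 probe over a wide range of signal. It does not measure the spread between probes or between repeat experiments. The gene Rhot2 had a spot error of 0.15, while its 2 probes had an SD of 5.99. Spots of the 146 probes printed 10 times had a median SD of 0.06, and different probes of the same gene a median SD of 0.29 over the 4934 genes with at least 2 probes. A gene is called higher in one fraction from a 2-fold difference on.

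Of the stromal markers listed for the check of the cell type, 14 of 18 were measured. Pdgfrb, the platelet-derived growth factor receptor beta of mesenchymal cells, had 36752 intensity units in heavy and 24237 in light polysomes, and Col1a2, a chain of type I collagen, had 110055 in heavy and 54237 in light. Pdpn, the podoplanin of fibroblastic reticular cells, had 1260 in heavy and 1016 in light. Thy1 was bright as well, with 18917 in heavy and 23403 in light. Other stromal markers were dim: Vcam1 had 383 in heavy and 266 in light, Pdgfra 208 and 161, Bst1 133 and 159, and Il7 44.3 and 74.8. Ccl19 was well above background on the heavy array alone, Cxcl13 and Fap on neither array, and the array has no gene named Ccl21a. The chemokines that define T-zone and B-zone stroma in the lymph node therefore have no value here. Of the 15 leukocyte markers 6 were measured, without Ptprc (CD45), and their summed signal was 1938 in heavy and 2023 in light polysomes. Lyz2, the brightest of them, had 984 in heavy and 1196 in light, above the dim stromal markers. Of the 13 endothelial markers 5 were measured, without Pecam1 and Cdh5, with a sum of 326 in heavy and 325 in light. Of the 9 epithelial markers Krt18 and Krt19 were measured, without Epcam and Cdh1, with a sum of 3337 in heavy and 1784 in light. Nearly all of it came from Krt19, with 3289 in heavy and 1751 in light, and Krt18 had 48.2 and 32.9. Of the 9 smooth muscle and pericyte markers 8 were measured, with a sum of 174847 in heavy and 113534 in light. Their median log2 heavy over light was 0.59. Most of the sum came from 3 genes. Cnn1, the calponin of contractile cells, had 100077 in heavy and 66056 in light, Tagln 55417 and 35113, and Acta2 17720 and 11214. Myh11, Notch3 and Des of the same list were dim, with 94.9, 95.7 and 51.6 in heavy. Rgs5 was well above background on neither array. In pooled cells, fewer cells of a type and less RNA per cell cannot be told apart, and the part of such cells in the results was not tested. Before normalization the upper-quartile signal was 1078 on the heavy and 288 on the light array, and 57.3% of spots on the heavy and 51.5% on the light array were well above background. No spot was saturated.

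By their list medians, genes for aminoacyl-tRNA synthetases, small leucine-rich proteoglycans, large matrix glycoproteins, cytosolic chaperones and the microtubule cytoskeleton lay furthest to the heavy side, and noncoding RNAs and selenoprotein genes furthest to the light side. Over all 14058 genes, 874 were called higher in heavy (6.22% of those measured) and 1316 higher in light (9.36%), together 15.6%. The counts called in each list below are to be read beside these shares. The median of all genes was 0.04, the quartiles were -0.45 and 0.45, and the SD was 0.72. Among genes with a value the light side reached further: at 4-fold there were 30 genes in heavy and 126 in light, and at 8-fold 0 in heavy and 5 in light. Left out were 1598 genes well above background on the heavy array alone and 259 on the light array alone. Whether this bears on the difference in reach was not tested. Of the called genes, 1605 rested on 1 probe. In 576 of the 585 with more probes all of them lay on the same side of 0, which a call on the mean over probes makes likely. In 117 called genes the probes differed by more than 1 on the log2 scale. With each array centred on its median instead, the median of all genes shifted to -0.15 and the calls split into 592 higher in heavy (23.8% of calls) and 1900 higher in light, against 39.9% of calls higher in heavy in the values given here.

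**Figure D1:**
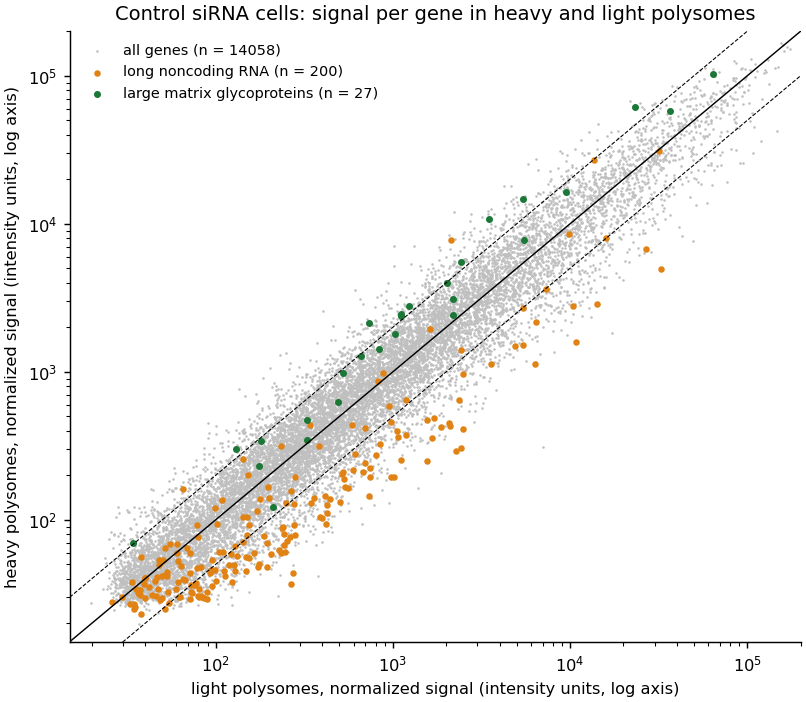
Normalized signal of each measured gene in heavy polysomes (vertical, intensity units, log axis) against light polysomes (horizontal, intensity units, log axis) in control siRNA cells. The solid line marks equal signal and the dashed lines a 2-fold difference. Long noncoding RNAs (200) lie mostly below the lower dashed line, with a median log2 heavy over light of -1.07, and 10 of the 27 large matrix glycoprotein genes lie above the upper one.

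The 12 genes furthest to the heavy side, among genes with a proper symbol, at least median signal and all probes on the same side of 0, came from matrix, cytoskeleton, RNA processing and metabolism. Cdk5r2, which encodes an activator of the kinase Cdk5 known from neurons, had 3555 units in heavy and 610 in light polysomes, a log2 heavy over light of 2.54 ± 0.20 (spot error) from 1 probe. Col4a2, a chain of the basement membrane collagen IV, had 12082 in heavy and 2221 in light, which gave 2.44 ± 0.14, and its 2 probes gave 2.08 and 2.81. Dctn1, the largest subunit of the dynein activator dynactin, had 7089 in heavy and 1319 in light (2.43 ± 0.20). All of these lay more than 4-fold apart between the fractions. Cat, the peroxisomal catalase that breaks down hydrogen peroxide, had 5204 in heavy and 1013 in light (2.36). Zbtb20, a zinc finger transcription factor, had 3123 in heavy and 649 in light (2.27), and its 2 probes gave 2.14 and 2.39. Prpf8, the core protein of the spliceosome, had 1578 in heavy and 374 in light (2.08), with 1.88 and 2.27 from its 2 probes. Aars, the alanyl-tRNA synthetase, had 8460 in heavy and 2076 in light (2.03), but its 2 probes differed, with 1.51 from the brighter and 2.54 from the dimmer. Aars was at 0.68, under 2-fold, when probes near background were kept. The others of the 12 were Actc1 (2.10), an actin of heart muscle, Tubb2c, now Tubb4b (2.09), a beta-tubulin, Wdr46 (2.09), a nucleolar protein, Aebp1 (2.08), a secreted protein that binds collagen, and Pacsin2 (2.01 over 3 probes), which bends membranes. Actins and tubulins are families of near-identical sequence, so signal of relatives on these probes was not separated. Among genes with at least 2 probes the next were Msn, the moesin that links actin to the membrane (1.88), Iars, the isoleucyl-tRNA synthetase (1.82), and Parp1, which builds poly(ADP-ribose) on damaged DNA (1.81).

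Among genes chosen in the same way, those furthest to the light side were led by a gene whose probes disagreed. Rhot2, a GTPase of the outer mitochondrial membrane, had a mean of -4.50, but this rested on 1 of its 2 probes: one, at chr17:25570714-25571553 (mm8), had 41.4 units in heavy and 17679 in light polysomes (-8.74), and the other, at chr17:25566441-25566500, had 2313 in heavy and 2781 in light (-0.27). Taking the brighter probe of each gene left that gene at -0.27, not called.

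Sepw1, now Selenow, a small selenoprotein of the cytosol, had 1819 units in heavy and 17189 in light polysomes (-3.24 ± 0.20). Lst1, a leukocyte transcript of the major histocompatibility region, had 206 in heavy and 1882 in light (-3.19 ± 0.20). Gas5, a noncoding RNA whose introns give rise to small nucleolar RNAs, had 4948 in heavy and 32744 in light (-2.73 ± 0.20), and Snhg3, a host gene of the same kind, had 413 in heavy and 2488 in light (-2.59). These levels put most of the normalized signal of each gene in the light pool. Myeov2, now Cops9, a very small subunit of the COP9 signalosome, had 7700 in heavy and 49232 in light (-2.68). Tmsb10, thymosin beta 10, a short peptide that binds actin monomers, had 1357 in heavy and 8089 in light (-2.58), with -2.74 and -2.41 from its 2 probes. Timm8b, a small import chaperone between the mitochondrial membranes, had 8336 in heavy and 43054 in light (-2.37), with -2.48 and -2.26 from its 2 probes. The others of the 12 were Tusc2 (-2.50), a small mitochondrial protein, Spop (-2.44), a substrate adaptor of a ubiquitin ligase, Map3k10 (-2.39), a kinase upstream of JNK, and Bola3 (-2.34), which takes part in iron-sulfur cluster assembly. Among genes with at least 2 probes the next were Tmem134 (-2.25), Dph3 (-2.25 over 3 probes), a small protein needed to make diphthamide, and Ccdc72, now Tma7 (-2.24), a very small protein associated in yeast with ribosomes. Spop and Map3k10 do not encode small proteins, and Spop rested on 1 probe. Words such as small, short or large, here and elsewhere, only describe a protein, and a relation of placement with protein length was not tested.

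**Figure D2:**
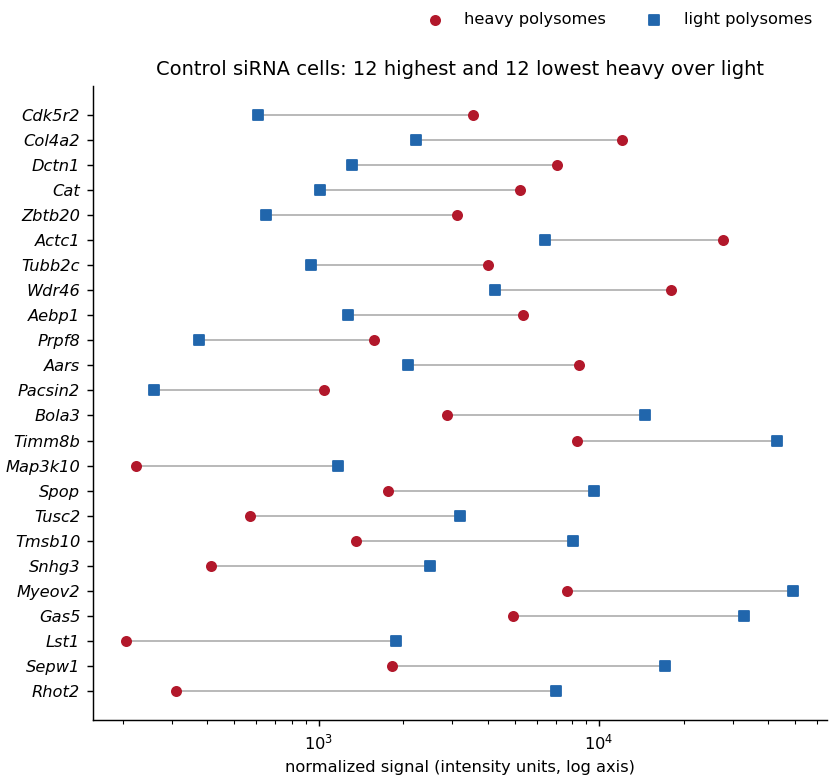
Normalized signal (intensity units, log axis) in heavy polysomes (red circles) and in light polysomes (blue squares) of control siRNA cells for the 12 highest and the 12 lowest genes by heavy over light among called genes with a proper symbol, at least median signal and all probes on the same side of 0, ordered from the highest at the top. The grey line joins the 2 values of a gene, and the means over 2 disagreeing probes make Rhot2 the lowest at -4.50.

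Matrix genes lay to the heavy side. Of the 26 measured collagen chains 8 were called higher in heavy and 1 in light, and their median was 0.67, against 0.04 for all genes. Col6a1, of the microfibrillar collagen VI, had 3526 units in heavy and 920 in light polysomes (1.94), and Col5a2, of the fibrillar collagen V, had 9383 in heavy and 2880 in light (1.70). The collagen called on the light side was Col4a6, with 121 in heavy and 356 in light (-1.56), and it was at -0.37 when probes near background were kept. Col1a2 stood just over the 2-fold line (1.02) and was under it in 4 of the 10 alternatives to the processing, the lowest of them 0.05, and Col3a1, of collagen III, had 2004 in heavy and 1716 in light (0.22). Of 27 large matrix glycoprotein genes, 10 were called higher in heavy and 0 in light, with a median of 0.91. Lamc1, the common gamma chain of laminins, had 10730 in heavy and 3482 in light (1.62), Emilin1, of elastic fibres, had 2146 in heavy and 736 in light (1.54), and Vcan, the proteoglycan versican, lay the other way with 122 in heavy and 211 in light (-0.79). The 5 measured small leucine-rich proteoglycans had a median of 0.94, led by Bgn, biglycan, with 6697 in heavy and 1846 in light (1.86).

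Genes for matrix proteases and their inhibitors numbered 33, with 4 called higher in heavy, 0 in light and a median of 0.55. Plat, tissue plasminogen activator, had 3219 units in heavy and 1193 in light polysomes (1.43), and Timp2, an inhibitor of matrix metalloproteases, had 89574 in each fraction (0.00). The secretory machinery that such proteins pass through was placed likewise. Of 36 genes for chaperones and folding in the endoplasmic reticulum, 4 were called higher in heavy and 0 in light (median 0.45), and 3 of the 4 modify collagen: Plod1, with 1059 in heavy and 203 in light (2.38), and Plod3 (1.53) encode lysyl hydroxylases and P4ha2 (1.15) a prolyl hydroxylase. The fourth was Hyou1 (1.18), a chaperone of the stressed endoplasmic reticulum. At the other end of that list stood Sec61g, a small subunit of the translocation channel, with 48294 in heavy and 85866 in light (-0.83). Of 41 genes for vesicle traffic 7 were called higher in heavy and 1 in light (median 0.55). Sec31a, of the COPII coat that leaves the endoplasmic reticulum, had 12594 in heavy and 3589 in light (1.81), and the one called in light was Bet1, a small SNARE protein (-1.15).

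**Figure D3:**
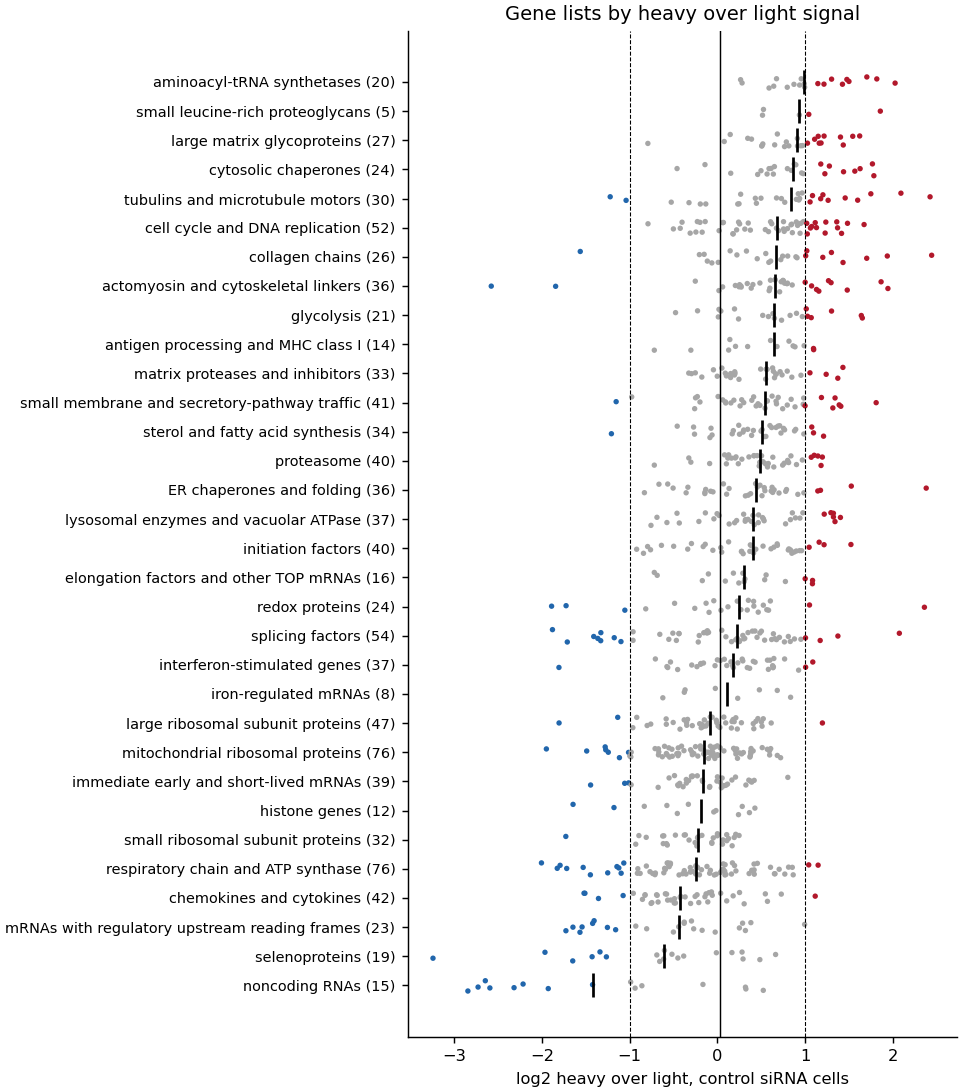
Log2 heavy over light in control siRNA cells for the members of each gene list, 1 point per gene, with the number of measured genes in parentheses and a black tick at the list's median. Red points were called higher in heavy and blue points in light polysomes, the solid line is the median of all genes (0.04), and medians run from 0.99 for aminoacyl-tRNA synthetases to -1.42 for listed noncoding RNAs.

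Genes of protein synthesis differed by list, with synthetases and initiation factors to the heavy side and ribosomal proteins near the median of all genes. All 20 aminoacyl-tRNA synthetases measured were above 0 after quantile normalization, and 9 were called higher in heavy and 0 in light (median 0.99). After Aars the highest were Iars, with 1209 units in heavy and 343 in light polysomes (1.82), and Rars, the arginyl-tRNA synthetase, with 215 in heavy and 65.8 in light (1.70). The lowest was Sars, the seryl-tRNA synthetase, with 25285 in heavy and 21027 in light (0.27). Of 40 initiation factor genes 4 were called higher in heavy and 0 in light (median 0.40). Those called were Eif4a3 (1.52), a helicase of the exon junction complex, Eif3s8, now Eif3c (1.22), Eif3s9, now Eif3b (1.16), both large subunits of eIF3, and Eif4a1 (1.05), the helicase of eIF4F. Eif4ebp2, a repressor of the cap-binding protein, lay lowest of the list at -0.92. Eif1b, a relative of the start-codon factor eIF1 that the list does not hold, was called in light (-1.10).

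The 3 scaffold genes of the eIF4G family were spread out. Eif4g1 had 753 units in heavy and 387 in light polysomes (0.96 ± 0.15), with 0.74 and 1.18 from its 2 probes. Eif4g3, the gene targeted in the matched cells, had 4437 in heavy and 2314 in light (0.94 ± 0.14), and its 2 probes gave 1.01 and 0.87. Eif4g2, which encodes a relative without the site for the cap-binding protein, had 3650 in heavy and 5151 in light (-0.50). None of the 3 was 2-fold apart.

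Of the 47 large-subunit ribosomal protein genes 1 was called higher in heavy and 2 in light (median -0.08), and of the 32 small-subunit genes 0 in heavy and 1 in light (median -0.22). Centring each array on its median put these medians at -0.41 and -0.53, and with the brightest probe of each gene the large-subunit median was 0.01. Rpl41, the shortest ribosomal protein, had 42341 units in heavy and 147758 in light polysomes (-1.80), Rps29, also very short, had 36075 in heavy and 119345 in light (-1.73), and Rpl27a had 820 in heavy and 1800 in light (-1.13, but -0.68 from its brighter probe). Rpl4, one of the longest, had 6480 in heavy and 2823 in light (1.20). A relation with protein length was not tested. Ribosomal protein genes have many processed copies in the genome, so signal from copies on these probes was not separated. Elongation factors and other mRNAs with a 5' terminal oligopyrimidine (TOP) motif lay higher, with a median of 0.30 over 16 genes, 3 called in heavy and 0 in light. These 3 were Eef2, the translocase of the ribosome (1.09), Cct4, a subunit of the chaperonin TRiC (1.08), and Vim, the intermediate filament protein vimentin. Vim had 62126 in heavy and 31015 in light, just past 2-fold. The probes of Eef2 ran from 0.22 to 1.54, and it was at 0.96 with median centring. Cct4 was at 0.87 with median centring and at 0.94 when probes near background were kept. Pabpc1, the poly(A)-binding protein, had 51426 in heavy and 84565 in light (-0.72).

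A TOP motif is a C at the cap followed by an unbroken run of pyrimidines, and it places mRNAs under control of the mTOR pathway. Annotated starts were read from RefSeq (build GRCm38.p6) for 9937 of the measured genes, and a start was counted as TOP-like when it began with C followed by at least 4 further bases that were C or T. The starts below were picked, after their values were seen, because they carry this tract and spread from the light to the heavy end. Each runs from 10 bases before the annotated start to 20 bases from it on, and capitals mark the tract.
Snhg7 (array name 2610002F03Rik, chr2:26640225-26640254, minus strand): gatgctcggcCTCTCggcagccatggcggc
Snhg8 (chr3:123508317-123508346, minus strand): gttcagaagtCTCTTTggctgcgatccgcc
Rps27 (chr3:90213629-90213658, minus strand): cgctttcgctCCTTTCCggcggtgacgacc
Rack1 (array name Gnb2l1, chr11:48800350-48800379, plus strand): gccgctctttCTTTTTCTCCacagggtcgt
Rps6 (chr4:86857348-86857377, minus strand): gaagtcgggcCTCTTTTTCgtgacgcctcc
Rpl15 (chr14:18270967-18270996, minus strand): agaaagccttCTTCCTTTCCTCTggcggca
Col6a1 (chr10:76726025-76726054, minus strand): cctccctccaCCCTCCCTggctctctcctc

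Snhg7, a noncoding host gene of small nucleolar RNAs, had 43.6 units in heavy and 272 in light polysomes (-2.64), and Snhg8, another such host, had 8058 in heavy and 15971 in light (-0.99). Rps27, of the small subunit, had 69406 in heavy and 121657 in light (-0.81). Rack1, the scaffold on the small subunit, had 44679 in heavy and 41909 in light (0.09), Rps6 had 15948 in heavy and 14586 in light (0.13), and Rpl15 had 47761 in heavy and 33691 in light (0.50). Col6a1 was at 1.94. This spread restates how the starts were picked. Over all measured genes the 237 with a TOP-like start had a median of -0.03 and the 9700 without one a median of 0.04, and 2.49% of the 27025 genes in the RefSeq promoter table had such a start. Ribosomal protein genes with a TOP-like annotated start, 13 of 57, had their median at -0.06, and the 44 without one at -0.22. Annotated starts can lie some bases off the start used in these cells, so a missing tract says only that these letters were not at the annotated start. The GC share of the first 50 bases had a Spearman's rho of 0.00 with heavy over light, across genes, which are not independent replicates.

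Genes for cytoskeleton and folding also lay to the heavy side. Of 30 tubulin and motor genes 10 were called higher in heavy and 2 in light (median 0.84). Tuba1b, an alpha-tubulin, had 11614 units in heavy and 3451 in light polysomes (1.75), and Kif20a, a kinesin of cytokinesis, had 12799 in heavy and 4220 in light (1.60). The 2 in light were the dynein light chains Dynll1, with 1693 in heavy and 3945 in light (-1.22), and Dynll2, with 6188 in heavy and 12715 in light (-1.04). Both were short of 2-fold with the brightest probe alone. Of 36 actomyosin genes 9 were called higher in heavy and 2 in light (median 0.66). Tln1, the talin that couples integrins to actin, had 797 in heavy and 218 in light (1.87 over 3 probes), and Flna, filamin A, had 5713 in heavy and 2560 in light (1.16). The 2 in light were the thymosins Tmsb10 and Tmsb4x, and Tmsb4x had 30217 in heavy and 108351 in light (-1.84). Of 24 cytosolic chaperone genes 8 were called higher in heavy and 0 in light (median 0.86), with Cct3 of the chaperonin TRiC at 1.79, the inducible Hspa1a at 1.77 and Hsp90ab1 at 1.63. Cct3 was at 0.90, under 2-fold, when probes near background were kept. Of 40 proteasome genes 5 were called higher in heavy and 0 in light (median 0.49), led by Psmd1, the largest subunit of the regulatory particle, with 3152 in heavy and 1374 in light (1.20).

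The list for cell cycle and DNA replication had 13 genes of 52 called higher in heavy and 0 in light (median 0.69). Mcm5, a subunit of the replicative helicase, had 6708 units in heavy and 2103 in light polysomes (1.67), and its partner Mcm3 had 5250 in heavy and 1876 in light (1.48). Cenpa, the centromeric histone, stood at the other end with 2121 in heavy and 3667 in light (-0.79). Of 12 measured histone genes 0 were called higher in heavy and 2 in light (median -0.18): Hist1h2ab, now H2ac4, had 2483 in heavy and 7759 in light (-1.64) and H2afv had 23280 in heavy and 52644 in light (-1.18). Histone genes of a type are nearly identical, and most replication-dependent histone mRNAs lack a poly(A) tail, so their values depend on the labelling, which was not tested.

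Glycolysis and the respiratory chain lay on opposite sides of the median of all genes. Of 21 glycolysis genes 6 were called higher in heavy and 0 in light (median 0.65). Hk1, hexokinase 1, had 573 units in heavy and 182 in light polysomes (1.65 over 5 probes, from 0.94 to 2.09), and Gapdh, which also has many processed copies, had 67755 in heavy and 21709 in light (1.64). Respiratory chain and ATP synthase genes lay the other way, with 2 of 76 called higher in heavy, 11 in light and a median of -0.24. The lowest were 1110020P15Rik, now Uqcr10, a very small subunit of complex III, with 19170 in heavy and 76878 in light (4.01-fold higher in light), and Atp5e, the epsilon subunit of ATP synthase, with 25800 in heavy and 91341 in light (-1.82). The catalytic beta subunit of the same enzyme, Atp5b, had 17976 in heavy and 8102 in light (1.15), though 0.63 from its brightest probe. Of 76 mitochondrial ribosomal protein genes 0 were called in heavy and 7 in light (9.21%, close to the 9.36% of all genes), and the median was -0.15, with Mrps21 lowest at 916 in heavy and 3533 in light (-1.95).

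Of 34 genes of sterol and fatty acid synthesis 3 were called higher in heavy and 1 in light (median 0.51), beside 6.22% and 9.36% of all genes. Nsdhl, a sterol dehydrogenase, had 704 units in heavy and 304 in light polysomes (1.21) and Fdps, farnesyl diphosphate synthase, had 3955 in heavy and 1849 in light (1.10), while Insig2, which retains the sterol sensor in the endoplasmic reticulum, had 1358 in heavy and 3134 in light (-1.21). Each of these 3 was under 2-fold in at least 1 alternative. Of 37 lysosomal genes 6 were called higher in heavy and 0 in light (median 0.41), with Atp6ap1, an accessory subunit of the proton pump, at 1.40. Of 54 splicing factor genes 4 were called higher in heavy and 8 in light (median 0.22), beside 6.22% and 9.36% of all genes. Prpf8 was the highest, and 7 of the 8 in light encode small ring proteins of the snRNPs, with Lsm5 at 5571 in heavy and 20481 in light (-1.88), Lsm6 at 1338 in heavy and 4374 in light (-1.71 over 4 probes) and Snrpg at 20119 in heavy and 51692 in light (-1.36).

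Selenoprotein genes were on the light side. Selenoproteins carry selenocysteine, which is inserted at a UGA codon that otherwise stops translation. Of 19 measured genes 6 were called higher in light and 0 in heavy, and the median was -0.60. After Sepw1 came 2700094K13Rik, now Selenoh, a nucleolar selenoprotein, with 2987 units in heavy and 11652 in light polysomes (-1.96), and Gpx1, the cytosolic glutathione peroxidase, with 15215 in heavy and 47660 in light (-1.65). Sephs2, a selenophosphate synthetase that is itself a selenoprotein, had 1805 in heavy and 4851 in light (-1.43), Gpx4, the peroxidase of membrane lipids, had 31967 in heavy and 80739 in light (-1.34), and Selm, now Selenom, had 10403 in heavy and 24979 in light (-1.26). Selenoproteins with other placements were Txnrd1, thioredoxin reductase, with 63299 in heavy and 51632 in light (0.29), and 1300018J18Rik, now Selenoo, with 1355 in heavy and 855 in light (0.67). In the reductases selenocysteine lies next to the last residue, and whether its position bears on placement was not tested. Of the other reductases Txnrd3 was at 0.49, and Txnrd2 at -0.01 with probes from -1.61 to 1.08. Among 24 genes of a separate redox list 2 were called higher in heavy and 3 in light (median 0.25), beside 6.22% and 9.36% of all genes. Those in light were the metallothioneins Mt2, with 25655 in heavy and 94978 in light (-1.89), and Mt1 (-1.72), which are short metal-binding proteins, and Glrx5 (-1.05), a mitochondrial glutaredoxin.

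Of 23 genes listed as having a regulatory upstream reading frame, a short frame in the leader that ribosomes meet before the main one, 8 were called higher in light and 0 in heavy (median -0.44). Atf4, the transcription factor of the integrated stress response, had 1209 units in heavy and 3997 in light polysomes (-1.72). Ddit3, its target CHOP, had 394 in heavy and 1165 in light (-1.56), and Atf5, a relative of Atf4, had 25061 in heavy and 59688 in light (-1.25). These 3 are well known for upstream frames that hold back the main frame in unstressed cells. The other members called were Tmem183a (-1.64), Map2k6 (-1.54), a kinase of the p38 pathway, Sat1 (-1.42), a polyamine acetyltransferase, Oaz1 (-1.40), the antizyme of polyamine synthesis, and Bcl2l11 (-1.16), the apoptosis protein Bim. The control of Oaz1 known best is a ribosomal frameshift and not an upstream frame. Eprs, the glutamyl-prolyl-tRNA synthetase, had 758 in heavy and 380 in light over 4 probes, just under 2-fold.

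Short-lived and secreted signalling mRNAs had list medians below 0, with shares called in light no higher or barely higher than over all genes. Of 39 immediate early and other short-lived mRNAs 0 were called higher in heavy and 3 in light (7.69%, against 9.36% of all genes), with a median of -0.17. Socs1, an inhibitor of cytokine signalling, had 2439 units in heavy and 6634 in light polysomes (-1.44), Jund1, now Jund, of the AP-1 family had 19974 in heavy and 41506 in light (-1.06), and Dusp2, a phosphatase of MAP kinases, had 343 in heavy and 691 in light (-1.01). Fosl1, another AP-1 protein, stood highest with 3159 in heavy and 1809 in light (0.80). Of 42 chemokine, cytokine and growth factor genes 33 were below 0, with 1 called higher in heavy, 4 in light (9.52%, against 9.36% of all genes) and a median of -0.42. Fgf7, the keratinocyte growth factor of fibroblasts, had 4857 in heavy and 13815 in light (-1.51), and 2010004A03Rik, now Il34, a ligand of the macrophage colony-stimulating factor receptor, had 687 in heavy and 1970 in light (-1.52). The other ligand of that receptor, Csf1, had 94939 in heavy and 57238 in light (0.73). Vegfb, a growth factor of the vascular family, was at -1.35 and the T-cell chemokine Ccl5 at -1.07. Igfbp3, which binds insulin-like growth factors, was called in heavy (1.12) from 77.7 in heavy and 35.8 in light, and it was short of 2-fold in 4 of the 10 alternatives.

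Genes induced by interferon had a median of 0.18 over 37 measured, with 2 called higher in heavy and 1 in light. Over all genes 6.22% were called in heavy and 9.36% in light. Genes listed for antigen processing and MHC class I had a median of 0.64 over 14, with 2 called in heavy and 0 in light. That list also holds the MHC class II gene H2-Ab1 (0.82). Ifi27, a small mitochondrial membrane protein, had 2003 units in heavy and 6996 in light polysomes (-1.80). The peptide transporter genes Tap1 and Tap2 were both at 1.10, Tap1 from 76.8 in heavy and 35.8 in light, close to the background. Both were under 2-fold with median centring (0.65 for Tap1, 0.99 for Tap2) and with normexp (0.61 for Tap1, 0.82 for Tap2). The MHC median was 0.35 with the brightest probes. For iron metabolism 8 genes were measured and none was called either way (median 0.11). Fth1, ferritin heavy chain, had 56781 in heavy and 73217 in light (-0.37) and Ftl1, its light chain, 9935 in heavy and 12890 in light (-0.38). Both carry an iron-responsive element in the leader. Tfrc, the transferrin receptor, whose element lies after the reading frame, had 647 in heavy and 403 in light (0.68).

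Long noncoding RNAs stood apart from protein-coding genes. RefSeq classes could be assigned through names or accessions to 12534 of the 14058 genes. The 200 long noncoding RNAs had a median of -1.07 and 109 of them (54.5%) were called higher in light and 2 in heavy, whereas the 12231 protein-coding genes had a median of 0.06, with 945 (7.73%) called in light and 720 (5.89%) in heavy. These noncoding RNAs were mostly dim, so the classes were also set side by side at like signal. From the dimmest to the brightest of 4 equal bins of signal, the medians were -0.79 (116 genes), -1.51 (41), -1.66 (27) and -1.64 (16) for long noncoding RNAs, and 0.04, 0.07, 0.09 and 0.03 for protein-coding genes.

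Among 30 noncoding RNAs listed by name 15 were measured, 8 of them called higher in light and 0 in heavy, with a median of -1.42. Next to Gas5 and Snhg3, the host gene 2810026P18Rik, now Snhg5, had 2853 units in heavy and 14207 in light polysomes (-2.32). Neat1 (array name 2310043N10Rik), the nuclear RNA that builds paraspeckles, had 357 in heavy and 1656 in light (-2.21), and Rian, of the imprinted Dlk1-Dio3 region, had 195 in heavy and 740 in light (-1.93). Rmrp, the RNA of the mitochondrial RNA processing nuclease, which is not a polysomal mRNA, had 93.3 in heavy and 669 in light (-2.84). Some listed RNAs were not on the light side: Xist, which coats the inactive X chromosome, had 136 in heavy and 108 in light (0.33), and Terc, the telomerase RNA, had 45.2 in heavy and 31.4 in light (0.52), near the dimmest spots measured. Gene names that are clone or predicted names made up 24.5% of measured genes, 21.6% of those called in heavy and 44.8% of those called in light.

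Heavy over light was also set against the genomic span of the 12149 protein-coding genes with one, which counts introns and is therefore no measure of the reading frame. From under 5 kb to over 100 kb the median moved from -0.21 (1560 genes) through -0.11, 0.03, 0.13 and 0.18 to 0.19 (1509 genes). The share called in light was 16.0% in the shortest and 3.05% in the longest class, and the share called in heavy 2.37% in the shortest and 8.28% in the longest. Spearman's rho across these genes was 0.21, as a description only, since the genes share 2 arrays and span also had a rho of -0.18 with signal.

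**Figure D4:**
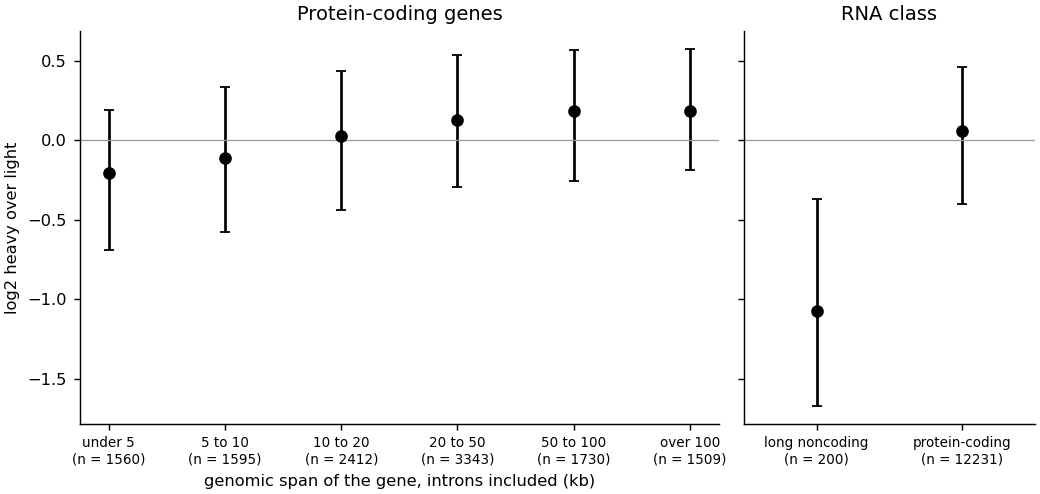
Left, log2 heavy over light in control siRNA cells for protein-coding genes in 6 classes of genomic span (kb, introns included), and right, for long noncoding and protein-coding RNAs. Points are medians and bars span the lower to the upper quartile over genes, with the number of genes below each class, and the medians run from -0.21 to 0.19 along span and stand at -1.07 for long noncoding and 0.06 for protein-coding RNAs.

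The same comparison in the matched cells with Eif4g3 siRNA, read in the other channel of the same arrays, gave a similar order of genes over a narrower range. In Eif4g3 siRNA cells 155 of 14010 genes were called higher in heavy (1.11%) and 562 in light (4.01%), together 5.12%. Over the 13695 genes measured in both, the SD of heavy over light was 0.49 in Eif4g3 siRNA and 0.72 in control siRNA cells. Pearson's r across these genes was 0.86 and Spearman's rho 0.84, as a description, since both channels share the arrays. Probes were filtered in each channel separately, so the 2 values of a gene can rest on different probes. Rhot2 was at -4.50 in control siRNA and 0.005 in Eif4g3 siRNA cells, where 1 of its 2 probes had no value. Of the 872 shared genes called in heavy in control siRNA cells, 865 were above 0 and 109 were called in Eif4g3 siRNA cells, and of the 1275 called in light, 1262 were below 0 and 505 were called. No gene was called in opposite directions. Dye and siRNA were joined on both arrays, and the red upper-quartile signal was 367 on the heavy and 686 on the light array, so dye, depth and transfection cannot be told apart in the narrower range.

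Cdk5r2 and Gas5 were among the genes with like values in both: Cdk5r2 had 2.64 in Eif4g3 siRNA and 2.54 in control siRNA cells, and Gas5 -2.64 in Eif4g3 siRNA and -2.73 in control siRNA cells. Sepw1 had -2.76 in Eif4g3 siRNA and -3.24 in control siRNA cells. Values nearer to 0 in Eif4g3 siRNA cells were seen for Cat (0.65 in Eif4g3 siRNA, 2.36 in control siRNA), Zbtb20 (0.48 in Eif4g3 siRNA, 2.27 in control siRNA) and Iars (0.32 in Eif4g3 siRNA, 1.82 in control siRNA). Eif4g3 itself had 0.25 in Eif4g3 siRNA and 0.94 in control siRNA cells. The median of the large matrix glycoproteins was 0.34 in Eif4g3 siRNA and 0.91 in control siRNA cells, and that of aminoacyl-tRNA synthetases 0.40 in Eif4g3 siRNA and 0.99 in control siRNA cells. On the light side the median of selenoproteins was -0.40 in Eif4g3 siRNA and -0.60 in control siRNA cells, that of long noncoding RNAs -0.89 (177 genes) in Eif4g3 siRNA and -1.07 in control siRNA cells.

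**Figure D5:**
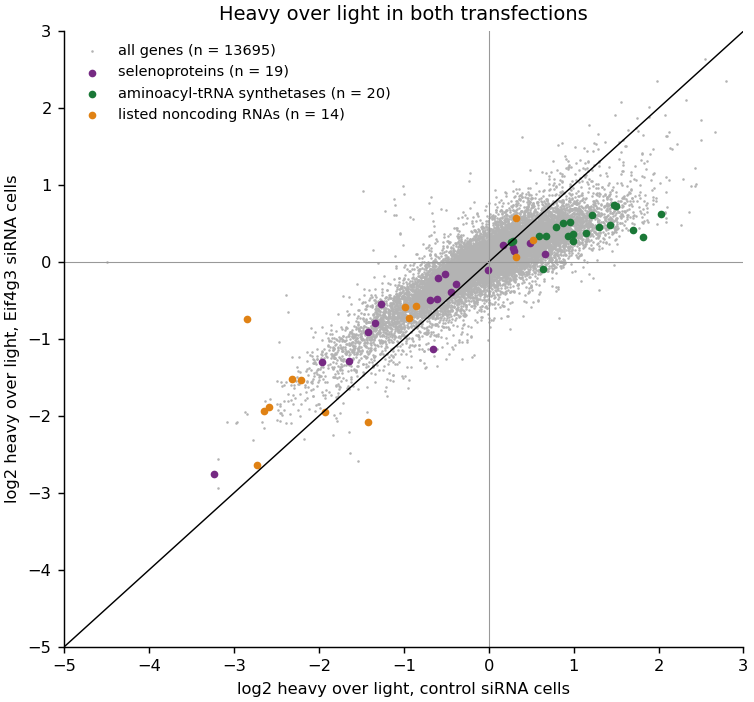
Log2 heavy over light in Eif4g3 siRNA cells (vertical) against control siRNA cells (horizontal) for the genes measured in both, with 3 gene lists coloured and the line of equal values. Points on the heavy side lie mostly below the line, with an SD of 0.49 in Eif4g3 siRNA and 0.72 in control siRNA cells over 13695 genes.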

How the data were processed

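RNA of heavy and light polysomes was read on 2 two-colour arrays, with Eif4g3 siRNA cells in Cy5 and control siRNA cells in Cy3 and no dye swap, per the labels. The deposited values are linear spot intensity, local background and flags, written by Feature Extraction 10.5.1.1 with probe coordinates on mm8 (NCBI build 36), per the file headers. The array of the gradient top and the 3 sample columns of the authors' value table were not used.

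The median local background was subtracted from the mean green signal, control spots and outlier spots were left out, and spots of a probe were averaged. Probes well above background on both arrays were quantile normalized, and log2 heavy over light was averaged per gene name (Python 3.11.15, numpy 2.4.6, pandas 2.3.3). The red channel was treated likewise. The threshold was 2-fold, with no test, since 1 array per fraction allows none. Alternatives used limma 3.58.1 in R 4.3.3 for normexp. The steps were tested on simulated data. Of the genes, 9786 matched RefSeq (GRCm38.p6) by symbol, 2300 by accession and 448 by synonym, and 1524 did not match.

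Members and lists were chosen with earlier results of these data known. Named were, among called genes with a proper symbol, at least median signal and all probes on the same side of 0, the 12 highest and 12 lowest, and the 8 highest and 8 lowest with 2 or more probes. Also named, without these conditions, were the 2 highest and 2 lowest of each list and Eif4g1, Eif4g2 and Eif4g3. Other list members named in the text were chosen after their values were seen. A part of the rule that used protein length could not be applied. Precision is limited by the number of arrays.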

Additional observations from a re-analysis of the deposited data

How the results depend on the processing

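No paired analysis was possible because each fraction is 1 array. With 10 alternatives, 908 of 963 values of the 98 named genes that passed 2-fold still did so, and 74 of these genes passed under every alternative that gave a value. No value reversed. Against 874 genes higher in heavy and 1316 in light, bright probes alone gave 570 and 800, from fewer genes, and normexp gave 573 in heavy. In Eif4g3 siRNA cells, against 155 in heavy and 562 in light, bright probes gave 74 and 296, normexp 73 and 290, and no filter on background 2523 and 2911, from 24546 genes. Median centring moved large and small ribosomal proteins to -0.41 and -0.53, long noncoding RNAs to -1.41, listed noncoding RNAs to -1.97, and markers of endothelial cells, leukocytes and epithelial cells to -0.37, -0.32 and 0.37. Bright probes moved long noncoding RNAs to -1.66, listed ones to -2.21 and small proteoglycans to 0.53 (3 genes). They moved the list for antigen processing and MHC class I to 0.35, as did the brightest probe. Long noncoding RNAs were at -0.68 with normexp and -1.38 with the software's processed signal, listed ones at -0.98 and -2.05, at -1.83 with the 75th percentile and at -0.86 without the filter. The epithelial markers were at 1.08 with the processed signal. The iron list changed sign with the 75th percentile (-0.02) and median centring (-0.16), large ribosomal proteins with the brightest probe (0.01), leukocyte markers with loess (0.05), no filter (0.08), the processed signal (0.00) and without genes whose probes disagreed (0.07, chosen after seeing the data), and protein-coding genes with median centring (-0.12). Except where fewer genes entered, the cause was not tested. The planned relation with protein length was not run. Signals near background limit the dimmest genes.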

Other observations

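Gene families grouped by symbol, chosen after their values were seen and given with no test, showed further placements in control siRNA cells. The gamma subunits of heterotrimeric G proteins, which are very short proteins, had a median of -1.35 over 8 genes, 6 of them higher in light at 2-fold and 0 in heavy, with Gng8 at -2.30 and Gng10 at -2.06. Genes of mitochondrial import (Timm and Tomm) had a median of -0.63 over 18, with 6 called in light and 0 in heavy, Tomm7 at -1.95 and Tomm40, the import channel, at 0.79. Homeobox genes of the Hox clusters had a median of -0.58 over 28, with 7 called in light and 0 in heavy, and Hoxc12 and Hoxa9 were lowest at -1.65 and -1.40. Subunits of RNA polymerases split by gene: Polr2k was at -1.90 and Polr2f at -1.77, both small shared subunits, and Polr3a, the large subunit of polymerase III, was at 0.97. Zinc finger genes named Zfp had a median of -0.28 over 221, with 1 called in heavy and 17 in light (7.69%, against 9.36% of all genes).

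On the heavy side kinesins (Kif) had a median of 0.59 over 28 with 6 called in heavy and 0 in light, and Kif20a and Kif1a were highest at 1.60 and 1.57. ATP-binding cassette genes (Abc) had a median of 0.39 over 26, with 6 called in heavy and 1 in light. Among them Abcf2 was at 1.68 and Abcf1, which acts in translation, at 1.24.

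Genes well above background in 1 of the 2 fractions alone have bounds in place of values. There were 1598 such genes in heavy, 89 of them with a bound of at least 2-fold, and 259 in light, 167 of them with such a bound. The highest named genes in heavy were Tmem154, at least 4.18-fold higher in heavy, and Gstt1, at least 3.97-fold. In light they were Pmp2, a fatty acid-binding protein of myelin, at least 20.3-fold higher in light, and Sult5a1, at least 9.08-fold.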
